A study of Mus musculus with 22 samples.

Results

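The genes of 10 B-lineage transcription factors were followed, Pax5, Ebf1, Spib, Spi1, Irf8, Bach2, Bcl6, Foxo1, Ikzf1 and Ikzf3. They were chosen by name, and the transcripts that the GENCODE mouse annotation assigns to each were summed, so that 10 of 17023 annotated genes were described. B cells are made from lymphoid progenitors by a small network of such proteins. Ebf1 and Pax5 switch on the genes of the B-cell receptor and hold down those of other lineages, the Ets factors PU.1 (encoded by Spi1) and Spi-B act with interferon regulatory factors such as Irf8, Foxo1 and the Ikaros family (Ikzf1, Ikzf3) guide early development and signalling, and Bach2 and Bcl6 are repressors that keep activated B cells from becoming plasma cells.

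RNA sequencing was done on 22 samples of TCL1-355 TKO, a mouse leukemia line from the Eμ-TCL1 model of chronic lymphocytic leukemia, in which the TCL1 oncogene is driven in B cells. The line carries a B-cell receptor that binds the autoantigen phosphatidylcholine, and all samples share its biallelic loss of Cdkn2a and Cdkn2b. In NFKBIE-ko cells the gene of the NF-κB inhibitor IκBε had been disrupted with CRISPR/Cas9, and NFKBIE-wt cells were mock treated. The genotypes were propagated separately for 21 days, in 2 C57BL/6 mice per the paper. Each was then injected into the peritoneum of 5 recipient mice. Cells were recovered on day 10 from the spleen (4 samples per genotype) and the peritoneal cavity (PC, 4 samples per genotype). The in vitro samples (3 per genotype) came from cells of the spleens of 3 mice, which had been kept in separate cultures for 2 weeks. The cells from mice were not purified, so that host cells are part of each spleen and PC library, and in such samples more cells of a type cannot be told apart from more RNA per cell. Recipient mice were 2 to 3 months old per the study's methods.

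Libraries held between 24036763 and 26581304 estimated counts, and levels are given as CPM, counts scaled to the TMM-adjusted size of each library. The gene Nfkbie was at 85.7 CPM in NFKBIE-wt and 98.1 CPM in NFKBIE-ko spleen (edgeR adjusted p = 0.719), at 78.7 and 53.4 CPM in the PC (log2 fold change -0.56, edgeR adjusted p = 0.0041) and at 103 and 54.4 CPM in vitro (edgeR adjusted p = 0.531), so that its RNA level did not separate the genotypes in every compartment. No replicate pair was a repeat of 1 library, since all differed beyond sampling noise. A pair of libraries went against their labels. The library labelled NFKBIE-wt spleen replicate 4 correlated best with the NFKBIE-wt in vitro mean (r = 0.982 across genes, against 0.927 with the other NFKBIE-wt spleen samples), and its granulocyte markers summed to 0.154 CPM, against 63.8 to 412 CPM in the other NFKBIE-wt spleen libraries. The culture library with the label NFKBIE-wt in vitro replicate 3 correlated best with the NFKBIE-wt spleen mean (r = 0.981, against 0.917 with its own group), and held 211 CPM of granulocyte and 1429 CPM of erythroid markers, against at most 3.71 and 20.7 CPM in the other NFKBIE-wt cultures. NFKBIE-wt in vitro replicates 1 and 2 correlated best with the NFKBIE-ko in vitro mean (r = 0.963 and 0.985, against 0.960 and 0.941 with their own group), so that 4 of 22 libraries were nearest to another group. Own-group means left out the library compared, so for replicates 1 and 2 they held the library labelled replicate 3. A likeness to NFKBIE-ko cannot be told apart from the part of that library in the mean. The former pair was kept in the groups of its labels, and the genotype results in the spleen and in vitro, and the compartment results, were also computed without it.

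The 6 B-cell markers (Cd79a, Cd79b, Ighm, Cd5, Cd22 and Ms4a1) were present in every group and summed to a lower level in NFKBIE-ko samples, although single markers could go the other way, as Cd22 and Ms4a1 did in the PC. In the spleen their sum was 6026 to 7247 CPM in NFKBIE-ko and 8922 to 9671 CPM in NFKBIE-wt, in the PC 8512 to 8874 and 10531 to 10834 CPM, and in vitro 7262 to 7715 and 8578 to 11280 CPM. The 16 macrophage and monocyte markers went the other way in mice, with 136 to 399 CPM in NFKBIE-ko and 43.1 to 112 CPM in NFKBIE-wt spleen, and 3514 to 5203 against 593 to 1747 CPM in the PC. In vitro their sum was 81.8 to 106 CPM in NFKBIE-ko, where C1qa, C1qc, Cd14, Fcgr1 and Marco were at 0 in all 3 libraries, and 74.5 to 117 CPM in NFKBIE-wt. The 11 granulocyte markers were lower in NFKBIE-ko PC, with 36.3 to 54.4 CPM against 178 to 493 CPM in NFKBIE-wt PC. In the spleen they summed to 100 to 267 CPM in NFKBIE-ko and 0.154 to 412 CPM in NFKBIE-wt. T-cell markers (13 genes) summed to 591 to 719 CPM in NFKBIE-ko and 1080 to 1420 CPM in NFKBIE-wt PC, and to 898 to 1063 and 480 to 1068 CPM in the spleen. In vitro they still summed to 322 to 383 CPM in NFKBIE-ko, with 6 of the 13 (Trbc1, Trbc2, Cd8a, Cd8b1, Bcl11b and Themis) at 0. NK and cytotoxic cell markers (7 genes) summed to 36.0 to 99.4 CPM in NFKBIE-ko and 2.97 to 12.5 CPM in NFKBIE-wt spleen. The 7 dendritic cell markers summed to a low level that was mostly higher in NFKBIE-ko, with 9.81 to 17.3 against 5.36 to 10.0 CPM in the spleen, 14.7 to 19.1 against 4.74 to 7.11 CPM in the PC and 19.2 to 21.1 against 5.89 to 13.0 CPM in vitro. In NFKBIE-wt spleen the extremes of 9671, 43.1, 0.154, 480, 2.97 and 10.0 CPM are those of the library labelled replicate 4. Without it T-cell markers summed to 876 to 1068 CPM and dendritic cell markers to 5.36 to 7.44 CPM there. In NFKBIE-wt in vitro the values of 117 and 5.89 CPM are those of the library labelled replicate 3. The part of these host cells in the results below was not tested. Marker sums given beside a gene are a description.

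To compare levels between genes, counts were divided by transcript length and scaled to the same total in each sample (TPM). On this scale, averaged over the 6 groups, Spib ranked first (427), followed by Ikzf1 (231), Ikzf3 (184), Pax5 (66.3), Spi1 (42.0), Foxo1 (25.3), Irf8 (24), Ebf1 (20.8), Bach2 (3.34) and Bcl6 (0.926). The order did not hold within each group. In NFKBIE-ko PC Spi1 was above Pax5 (86.8 and 50.6), and in NFKBIE-ko spleen Irf8 was above Spi1 (37.9 and 35.8). Spi1 was below Foxo1 in NFKBIE-wt spleen and in NFKBIE-wt in vitro (26.5 and 41.1), and Ikzf3 was above Ikzf1 in NFKBIE-ko in vitro (273 and 259). Without the library labelled replicate 4, Ikzf1 was above Spib in NFKBIE-wt spleen (277 and 258). In NFKBIE-wt PC the level per length was 34.1 ± 7.80 for Ebf1, 21.2 ± 0.923 for Irf8 and 21.0 ± 5.66 for Foxo1 (SD, n = 4). Bach2 and Bcl6 were the lowest in all 6 groups.

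**Figure D1:**
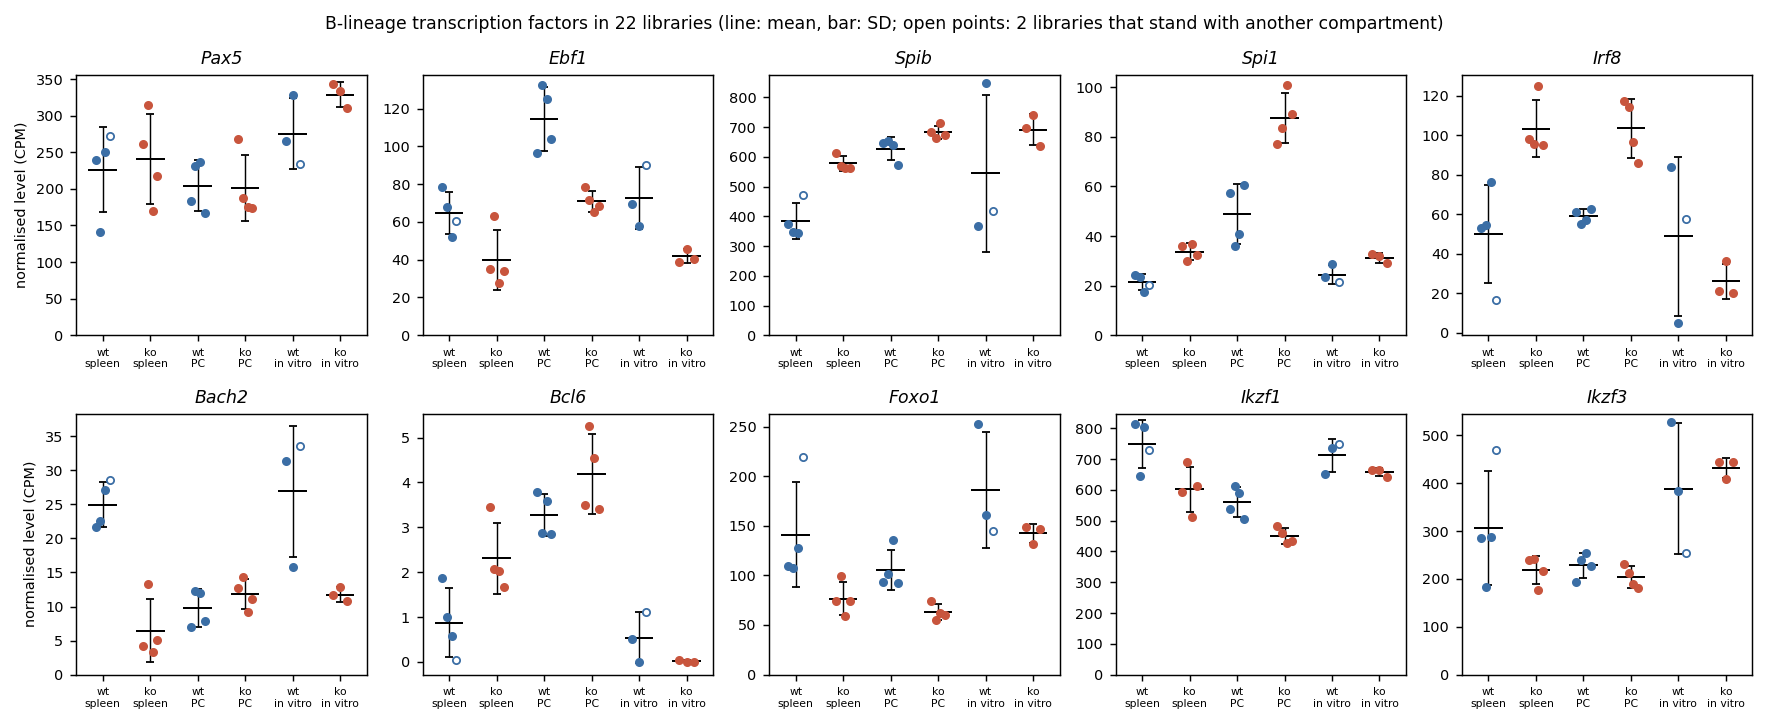
Level of each of the 10 genes (CPM, linear axis) in the 22 libraries, by genotype and compartment, with 1 point per library, the group mean as a line and the SD as a bar. Bach2 sits at 21.7 to 28.5 CPM in NFKBIE-wt spleen and at 3.29 to 13.3 CPM in NFKBIE-ko spleen, and open points mark the libraries labelled NFKBIE-wt spleen replicate 4 and NFKBIE-wt in vitro replicate 3.

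Between genotypes, some of the genes rose and others fell. In the spleen Spib and Spi1 were higher and Bach2 was lower in NFKBIE-ko, in the PC Spi1 and Irf8 were higher and Ebf1, Foxo1 and Ikzf1 were lower, and in vitro none of the genes passed the test. A gene was called at a Benjamini-Hochberg adjusted p below 0.05 over all genes tested with edgeR's quasi-likelihood test. In the spleen 3 of the 10 genes were called, where 5.17% of 12416 genes were. Of the 10, 7 had an unadjusted p below 0.05, as did 2824 of all genes. The count of calls in the spleen rested on single libraries. It was 0 without NFKBIE-wt replicate 1 or 3 or NFKBIE-ko replicate 1, 3 or 4, it was 1 without NFKBIE-wt replicate 2, and it was 4 without NFKBIE-wt replicate 4 or NFKBIE-ko replicate 2. In the PC 5 of 10 were called, and 5 again without any 1 library, close to the 42.9% of 12832 genes called there. The call of Ikzf1 was lost with the transcript with most counts in place of the gene (-0.08, edgeR adjusted p = 0.721) and that of Irf8 with all 22 samples in the fit (0.82, edgeR adjusted p = 0.274). In vitro 0 of 9 were called by edgeR (3 at an unadjusted p below 0.05, as were 1110 of all genes, and 2 with DESeq2). There 0.0336% of 11913 genes were called, and Bcl6 did not pass the filter on low counts. Without NFKBIE-wt in vitro replicate 2 the count was 4, and without the library labelled replicate 3 it stayed at 0. With the further demand of a log2 fold change beyond 1, Bach2 in the spleen was the only gene called (background 2.88% for the spleen, 13.3% for the PC and 0.0336% for cultures). The median log2 fold change of the genes was -0.11 for the spleen, 0.04 for the PC and -0.12 for cultures, and that of all genes tested was -0.00, -0.01 and -0.02.

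**Figure D2:**
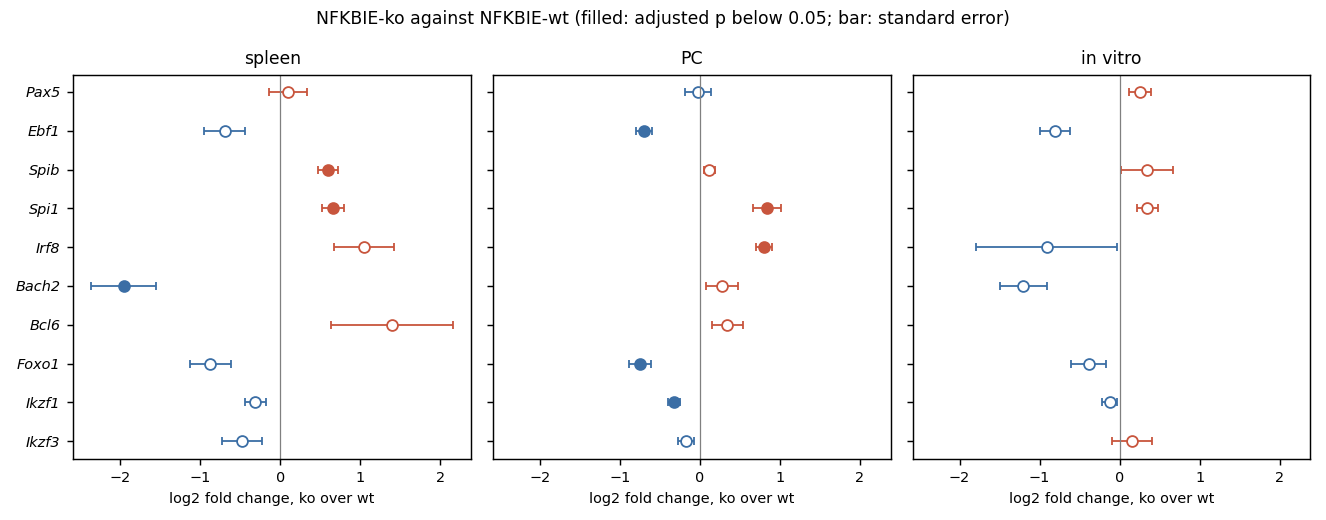
Log2 fold change of NFKBIE-ko over NFKBIE-wt for each gene in the spleen, PC and in vitro, with the standard error as a bar and filled points at an edgeR adjusted p below 0.05. Filled points are Spib, Spi1 and Bach2 in the spleen and Ebf1, Spi1, Irf8, Foxo1 and Ikzf1 in the PC, and Bcl6 has no point in vitro because it was not tested there.

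Pax5 (ENSMUSG00000014030, chr4:44524757-44710487, minus strand, on GRCm39 as are the gene positions that follow), the factor that commits a cell to the B lineage, was called in no genotype comparison. In the spleen it was at 239.6, 141, 251 and 273 CPM in the NFKBIE-wt replicates and at 261, 315, 170.2 and 218 CPM in the NFKBIE-ko replicates. The groups overlapped there and in the PC, where the levels were 184, 231, 237 and 167 CPM in NFKBIE-wt and 269, 188, 176 and 174 CPM in NFKBIE-ko. In vitro they were 265, 328 and 234 CPM in NFKBIE-wt and 344, 333 and 310.0 CPM in NFKBIE-ko. The log2 fold change was 0.10 ± 0.24 for spleen cells, -0.03 ± 0.16 for PC cells and 0.25 ± 0.13 for cultures (standard error), with edgeR adjusted p = 0.857, 0.916 and 0.551.

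Ebf1 (ENSMUSG00000057098, chr11:44508138-44898918, plus strand), which acts before and together with Pax5 and opens the chromatin of B-cell genes, was lower in NFKBIE-ko in all 3 compartments, and the difference passed the test in the PC. Its level there was 96.7, 133, 125 and 104 CPM in NFKBIE-wt and 78.5, 71.4, 65.0 and 68.6 CPM in NFKBIE-ko, with no overlap (log2 fold change -0.70 ± 0.10, edgeR adjusted p = 0.000372). In the spleen 78.5, 68.1, 52.3 and 60.2 CPM in NFKBIE-wt stood against 34.9, 63.1, 27.8 and 33.8 CPM in NFKBIE-ko. The second NFKBIE-ko spleen replicate lay among the NFKBIE-wt samples and the other 3 lay below all of them (log2 fold change -0.70 ± 0.25, edgeR adjusted p = 0.146, and -1.01 with adjusted p = 0.0187 without that replicate). In vitro the level was 69.7, 58.0 and 90.3 CPM in NFKBIE-wt and 38.7, 45.9 and 40.6 CPM in NFKBIE-ko. These groups did not overlap, but few genes could be called in vitro (log2 fold change -0.81 ± 0.18, edgeR adjusted p = 0.453). When the third NFKBIE-wt culture was left out it was -0.61, with adjusted p = 0.233, without the second it was -0.95, with adjusted p = 0.0375, and DESeq2 called it with all samples (-0.81, adjusted p = 0.0135).

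Spib (ENSMUSG00000008193, chr7:44175417-44181495, minus strand), an Ets factor largely restricted to B cells and plasmacytoid dendritic cells, was called in the spleen. It rose from 373, 348, 342 and 473 CPM in NFKBIE-wt to 614, 571, 564 and 562 CPM in NFKBIE-ko (log2 fold change 0.59 ± 0.13, edgeR adjusted p = 0.0322). The highest NFKBIE-wt value is that of the library labelled replicate 4, and without it the log2 fold change was 0.70 ± 0.10 (edgeR adjusted p = 0.00451). Of the 8 fits without 1 library Spib was called in 2, with adjusted p up to 0.114. In the PC the level was 646, 652, 641 and 572 CPM in NFKBIE-wt and 682, 663, 712 and 673 CPM in NFKBIE-ko, which did not overlap but differed by only 0.12 ± 0.07 on the log2 scale (edgeR adjusted p = 0.193). In vitro the NFKBIE-wt samples were at 368, 848 and 417 CPM and enclosed the NFKBIE-ko samples at 697, 741 and 637 CPM (edgeR adjusted p = 0.663). NFKBIE-wt in vitro replicate 2 was the high sample, and without it the log2 fold change was 0.81 ± 0.11 (edgeR adjusted p = 0.0314).

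Spi1 (ENSMUSG00000002111, chr2:90912562-90946101, plus strand) encodes PU.1, which is needed at a low level in B cells and at a high level in macrophages and other myeloid cells. It rose in both compartments of the mice. In the spleen it was at 24.4, 23.6, 17.5 and 20.3 CPM in NFKBIE-wt and at 36.0, 29.8, 36.7 and 32.5 CPM in NFKBIE-ko (log2 fold change 0.66 ± 0.14, edgeR adjusted p = 0.0329). Without the library labelled replicate 4 it was 0.63 ± 0.15 (edgeR adjusted p = 0.0331), and of the 8 fits without 1 library 3 called it, with adjusted p up to 0.112. In the PC 57.5, 36.1, 40.7 and 60.5 CPM in NFKBIE-wt stood against 77.1, 83.7, 101 and 89.1 CPM in NFKBIE-ko (0.84 ± 0.18, edgeR adjusted p = 0.00428). The in vitro samples, with 74.5 to 117 CPM of macrophage and monocyte markers, gave 23.6, 28.5 and 21.3 CPM in NFKBIE-wt and 32.7, 31.7 and 29.0 CPM in NFKBIE-ko. The groups did not overlap in any compartment, and in vitro the difference did not pass the test (0.34 ± 0.13, edgeR adjusted p = 0.531). By group, the macrophage and monocyte markers moved with Spi1 in mice, from 43.1 to 112 CPM in NFKBIE-wt spleen to 3514 to 5203 CPM in NFKBIE-ko PC. The value of 43.1 CPM is that of the library labelled NFKBIE-wt spleen replicate 4. Within NFKBIE-ko PC the library at 5203 CPM held 83.7 CPM of Spi1, below the 101 and 89.1 CPM of libraries with lower marker sums.

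Irf8 (ENSMUSG00000041515, chr8:121463096-121485659, plus strand), which partners PU.1 in B cells and directs monocyte and dendritic cell development, was higher in NFKBIE-ko in mice, as was the sum of the dendritic cell markers, whose part in it was not tested. In the PC it was at 61.4, 55.1, 57.1 and 62.7 CPM in NFKBIE-wt and at 117, 114, 96.5 and 85.8 CPM in NFKBIE-ko, with a narrow spread and no overlap (0.80 ± 0.10, edgeR adjusted p = 0.000163). In the spleen 52.9, 54.7, 76.4 and 16.5 CPM in NFKBIE-wt stood against 98.3, 95.7, 125 and 94.8 CPM in NFKBIE-ko. All NFKBIE-ko values lay above all NFKBIE-wt values, but the gene did not pass the test with all libraries (1.05 ± 0.37, edgeR adjusted p = 0.143). The lowest value is that of the library labelled NFKBIE-wt spleen replicate 4, and without it the difference passed (0.75 ± 0.17, edgeR adjusted p = 0.0241). In vitro the NFKBIE-wt replicates lay far apart at 83.8, 4.76 and 57.7 CPM, and the NFKBIE-ko replicates were at 21.3, 36.4 and 20.4 CPM. The direction there was downward and not called (-0.91 ± 0.88, edgeR adjusted p = 0.671). Irf8 was at 103 ± 14.3 CPM in NFKBIE-ko spleen, with 136 to 399 CPM of macrophage and monocyte markers, and at 104 ± 15 CPM in NFKBIE-ko PC, with 3514 to 5203 CPM of them (SD, n = 4, edgeR adjusted p = 0.996 for the PC against the spleen).

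**Figure D3:**
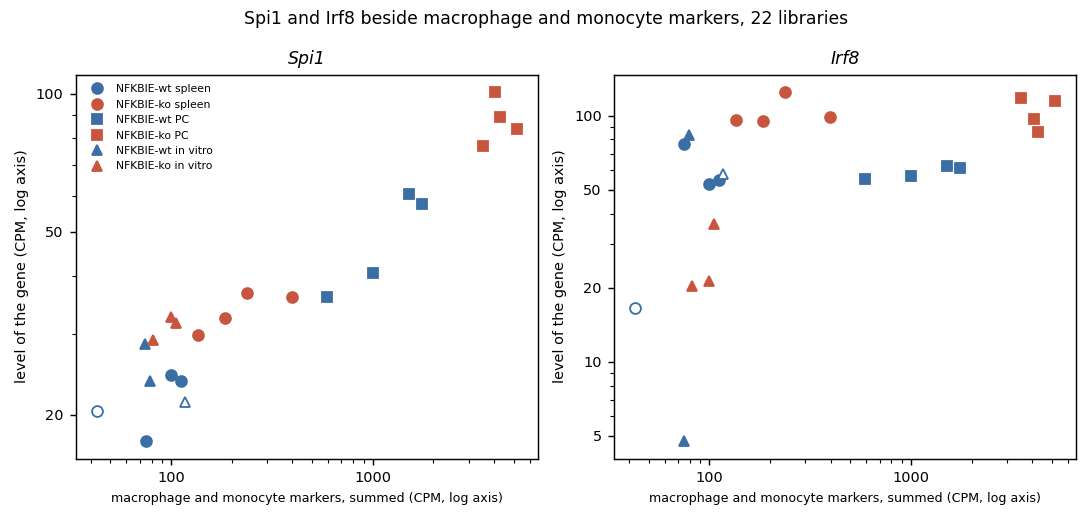
Level of Spi1 and of Irf8 (CPM, log axis) against the summed level of 16 macrophage and monocyte markers (CPM, log axis) in the 22 libraries, colored by genotype, with compartments as symbols and open points for the libraries labelled NFKBIE-wt spleen replicate 4 and NFKBIE-wt in vitro replicate 3. Spi1 is highest, at 77.1 to 101 CPM, in the NFKBIE-ko PC libraries with the highest marker sums, whereas Irf8 is at 94.8 to 125 CPM in NFKBIE-ko spleen and at 85.8 to 117 CPM in NFKBIE-ko PC.

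Bach2 (ENSMUSG00000040270, chr4:32238714-32586108, plus strand), the repressor that delays plasma cell differentiation, had the largest called log2 fold change of the 10 genes between genotypes. In the spleen it was at 21.7, 22.6, 27.1 and 28.5 CPM in NFKBIE-wt and fell to 4.15, 13.3, 3.29 and 5.04 CPM in NFKBIE-ko (log2 fold change -1.95 ± 0.41, edgeR adjusted p = 0.0313). The second NFKBIE-ko replicate again stood nearest to NFKBIE-wt. Without it the log2 fold change was -2.58 ± 0.20 (edgeR adjusted p = 0.0027), and when the fourth NFKBIE-wt spleen library was left out it was -1.89 ± 0.43 (edgeR adjusted p = 0.0248). These were the 2 of 8 fits without 1 library that called it, and in the other 6 it was -2.02 to -1.74, with adjusted p from 0.0575 to 0.105. In the PC the level was low in both genotypes, with 6.95, 12.2, 12 and 7.83 CPM in NFKBIE-wt and 12.8, 14.3, 9.14 and 11.1 CPM in NFKBIE-ko, which overlapped (0.27 ± 0.20, edgeR adjusted p = 0.308). In vitro 31.4, 15.9 and 33.6 CPM in NFKBIE-wt stood against 11.7, 12.9 and 10.8 CPM in NFKBIE-ko. These did not overlap and the difference did not pass the test (-1.20 ± 0.29, edgeR adjusted p = 0.454), although it did without NFKBIE-wt in vitro replicate 2 (-1.48 ± 0.12, edgeR adjusted p = 0.0209). The genotype effect in the spleen differed from that in the PC by -2.24 ± 0.48 on the log2 scale (edgeR interaction test, adjusted p = 0.0126), the only one of the 10 genes called in that test, where 4.85% of 13801 genes were. Without both libraries that went against their labels the difference was -2.15 ± 0.49 (edgeR adjusted p = 0.0137). The difference between the genotype effects in the spleen and in vitro called 0 of the 10 genes (background 0.391%, 1 with DESeq2). At an unadjusted p below 0.05 were 2 of the 10, and 2177 of 13801 genes. That between the PC and in vitro also called 0 (background 4.76%, 2 with DESeq2), with 4 of the 10 and 2723 of 13801 genes at an unadjusted p below 0.05.

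Most counts of Bach2 come from a pair of transcripts with different start sites and the same coding length of 2517 bases, Bach2-202 (42.8% of counts, from position 32238714 of chromosome 4 of GRCm39) and Bach2-207 (53.8%, from position 32417435). Bach2-201, which shares the start of Bach2-202, held 3.11% overall and 37.6% in NFKBIE-ko spleen replicate 1, where Bach2-202 was listed at 0. In 3 of the 4 NFKBIE-ko spleen libraries Bach2-202 was listed at 0, where NFKBIE-wt spleen had 6.84 to 16.8 CPM. Bach2-207 was at 2.59 to 7.89 CPM in NFKBIE-ko and 7.60 to 14.6 CPM in NFKBIE-wt spleen. Neither passed the test among 33308 transcripts in the spleen (background 0.354%, edgeR adjusted p = 0.51 and 0.245). In the PC and in vitro the estimate moved from 1 transcript to the other between replicates, and some libraries list 1 of them at 0 while their gene total is like that of the others, so that the sum per gene is the firmer value.

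Bcl6 (ENSMUSG00000022508, chr16:23783802-23807602, minus strand), the repressor that directs the germinal centre reaction, was low. In the PC it had 67 to 134 counts per library, and in the spleen it had 1 to 47 counts in the NFKBIE-wt and 44 to 91 counts in the NFKBIE-ko spleen libraries, or 1.87, 1.01, 0.582 and 0.0386 CPM and 3.46, 2.08, 2.04 and 1.67 CPM (1.40 ± 0.76, edgeR adjusted p = 0.31). The lowest is the library labelled NFKBIE-wt spleen replicate 4, and without it the log2 fold change was 1.00 ± 0.45 (edgeR adjusted p = 0.191). In the PC 3.78, 2.88, 3.58 and 2.85 CPM in NFKBIE-wt overlapped with 3.50, 5.26, 4.55 and 3.4 CPM in NFKBIE-ko (0.34 ± 0.20, edgeR adjusted p = 0.189). The NFKBIE-ko cultures held 1, 0 and 0 counts and the NFKBIE-wt cultures 13, 0 and 30, the last in the library labelled replicate 3.

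Foxo1 (ENSMUSG00000044167, chr3:52175757-52260642, plus strand), a Forkhead factor that PI3K signalling keeps out of the nucleus, was lower in NFKBIE-ko. In the PC 93.6, 101, 135 and 91.8 CPM in NFKBIE-wt stood against 74.1, 55.0, 62.3 and 60.4 CPM in NFKBIE-ko, with no overlap (-0.75 ± 0.14, edgeR adjusted p = 0.00152). In the spleen it was at 109.6, 107, 128 and 219 CPM in NFKBIE-wt and at 73.9, 99.5, 58.9 and 74.1 CPM in NFKBIE-ko. The groups did not overlap, and the difference missed the threshold with the library labelled NFKBIE-wt spleen replicate 4, which is the sample at 219 CPM (-0.87 ± 0.25, edgeR adjusted p = 0.0848), and without it (-0.59 ± 0.17, edgeR adjusted p = 0.0588). In vitro 253, 160.4 and 145 CPM in NFKBIE-wt overlapped with 149, 131 and 147 CPM in NFKBIE-ko (-0.39 ± 0.21, edgeR adjusted p = 0.555).

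Ikzf1 (ENSMUSG00000018654, chr11:11634980-11723186, plus strand) encodes Ikaros, a zinc-finger factor that silences and activates lymphoid genes. In the PC it fell from 536, 614, 589.9 and 505 CPM in NFKBIE-wt to 483, 459.9, 428 and 434 CPM in NFKBIE-ko, a small difference with no overlap (-0.32 ± 0.08, edgeR adjusted p = 0.0064). In the spleen 816, 647, 804 and 729 CPM in NFKBIE-wt and 594, 691, 512 and 613 CPM in NFKBIE-ko overlapped in 1 sample (-0.31 ± 0.13, edgeR adjusted p = 0.193). In vitro the values were 651, 737 and 750.0 CPM and 664, 666 and 643 CPM (-0.12 ± 0.09, edgeR adjusted p = 0.619).

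Ikaros is made in isoforms that differ in their zinc fingers, and 3 transcripts held most of the counts of Ikzf1, with 39.0% in Ikzf1-207, 25% in Ikzf1-204 and 23.3% in Ikzf1-210. The first pair has a coding length of 1545 bases. Ikzf1-210 lacks exons 4 and 6 of the 8 exons of Ikzf1-207, at chr11:11698311-11698571 and chr11:11708195-11708317 of GRCm39 (261 and 123 bases, coding exons 3 and 5 of 7, plus strand), and has a coding length of 1161 bases. The junctions are shown because reads that cross them tell Ikzf1-207 from Ikzf1-210. They were read from the GENCODE transcripts, with the last 25 bases of the shared exon in lower case and the 25 bases that follow in capitals.
Ikzf1-207 after exon 3: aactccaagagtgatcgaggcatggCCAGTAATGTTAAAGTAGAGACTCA
Ikzf1-210 after exon 3: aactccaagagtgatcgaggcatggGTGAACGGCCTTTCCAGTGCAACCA
Ikzf1-207 after exon 5: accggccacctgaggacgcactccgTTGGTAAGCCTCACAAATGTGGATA
Ikzf1-210 after exon 5: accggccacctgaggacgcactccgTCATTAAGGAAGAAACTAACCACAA

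In the PC the shorter isoform fell. Ikzf1-210 was at 143, 176, 172 and 190.4 CPM in NFKBIE-wt and at 82.4, 108, 93.5 and 97.4 CPM in NFKBIE-ko (log2 fold change -0.79 ± 0.12, edgeR adjusted p = 0.00375 among 34098 transcripts, of which 13.0% were called). Its share of the counts of Ikzf1 was 30.5% ± 4.92 in NFKBIE-wt and 21.2% ± 2.82 in NFKBIE-ko (SD, n = 4). Ikzf1-204 was at 109 ± 2.36 and 116 ± 6.39 CPM (0.14 ± 0.06, edgeR adjusted p = 0.15) and Ikzf1-207 at 201 ± 42.2 and 192 ± 25.9 CPM (-0.01 ± 0.15, edgeR adjusted p = 0.98). Whether the isoforms differ from each other in their change was not tested. In the spleen Ikzf1-210 was at 233, 237, 150.3 and 124 CPM in NFKBIE-wt and at 93.2, 180.4, 103 and 114 CPM in NFKBIE-ko, which overlapped (-0.56 ± 0.28, edgeR adjusted p = 0.489). In vitro it was at 124, 158 and 236 CPM and at 117, 119.6 and 118 CPM (-0.55 ± 0.24, edgeR adjusted p = 0.863 among 33361 transcripts, of which 0% were called).

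**Figure D4:**
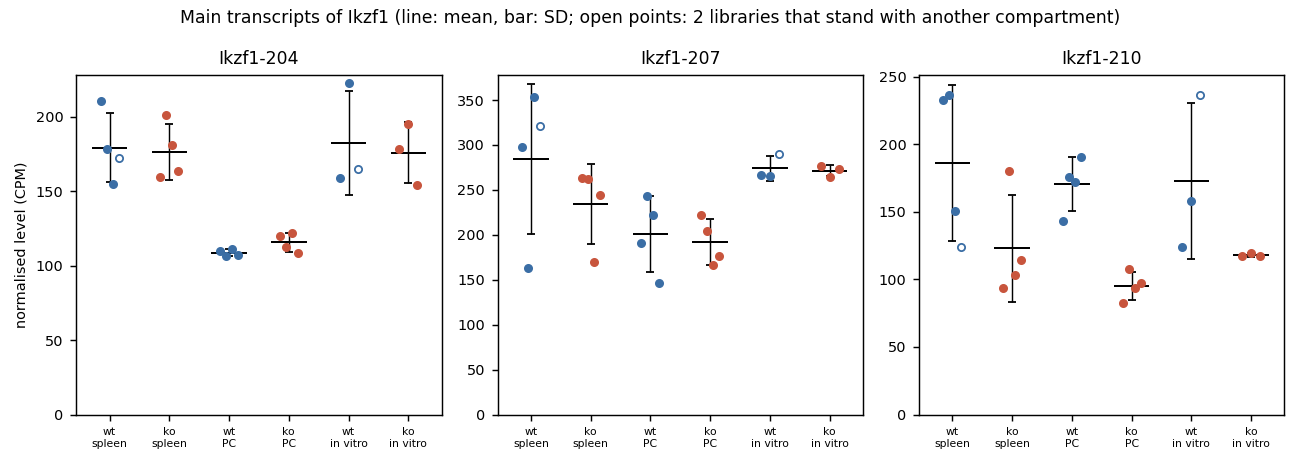
Level of the 3 main transcripts of Ikzf1 (CPM, linear axis) in the 22 libraries by genotype and compartment, with the group mean as a line, the SD as a bar and open points for the libraries labelled NFKBIE-wt spleen replicate 4 and NFKBIE-wt in vitro replicate 3. Among PC libraries Ikzf1-210 sits at 143 to 190.4 CPM in NFKBIE-wt and at 82.4 to 108 CPM in NFKBIE-ko, and the other isoforms overlap between genotypes.

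Ikzf3 (ENSMUSG00000018168, chr11:98355728-98436857, minus strand), which encodes the related factor Aiolos, was called in no genotype comparison. It was at 286, 183, 289 and 470.0 CPM in NFKBIE-wt and 240.4, 241, 178 and 217 CPM in NFKBIE-ko spleen (-0.48 ± 0.25, edgeR adjusted p = 0.294). The highest value belongs to the library labelled NFKBIE-wt spleen replicate 4, and without it the log2 fold change shrank to -0.21 ± 0.18 (edgeR adjusted p = 0.512). In the PC 193, 239, 255 and 226 CPM in NFKBIE-wt overlapped with 231, 213, 188 and 180.5 CPM in NFKBIE-ko (edgeR adjusted p = 0.188). In vitro 528, 384 and 254 CPM enclosed 444, 409 and 444 CPM (edgeR adjusted p = 0.8), and the lowest of the NFKBIE-wt values is that of the library labelled replicate 3.

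The promoters of the genes were searched for 4 motifs on both strands, the NF-κB site known as the κB motif, the Ets core GAGGAA, the octamer ATGCAAAT and the Ebf1 palindrome (TCCC and GGGA with any 2 bases between them). RefSeq promoters (GRCm38.p6, 250 bases before to 50 after each start) were at hand for 8 of the 10 genes, in 12 windows. The κB motif was found in 1 of them, that of Spib, and in 4.51% of 32851 promoters. The Ebf1 palindrome was found in that of Foxo1 and in 0.904% of all, the Ets core in a promoter each of Ebf1 and Bcl6 and in 28.3% of all, and the octamer in none of the 12 and in 1.74% of all. The stretches before the start of Spib (chr7:44532072-44532321, minus strand) and Foxo1 (chr3:52268087-52268336, plus strand) are shown because they hold the κB match and the Ebf1 palindrome. Whether either motif has a part in the level of its gene was not tested. The motif is in capitals and begins 180 bases before the start of Spib and 92 bases before that of Foxo1. A match describes these letters and is not a measured binding site.
Spib: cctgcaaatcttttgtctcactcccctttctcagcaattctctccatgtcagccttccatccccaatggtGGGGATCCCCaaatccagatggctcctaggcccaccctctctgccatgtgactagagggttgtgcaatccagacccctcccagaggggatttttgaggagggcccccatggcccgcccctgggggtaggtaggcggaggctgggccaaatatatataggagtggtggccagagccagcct
Foxo1: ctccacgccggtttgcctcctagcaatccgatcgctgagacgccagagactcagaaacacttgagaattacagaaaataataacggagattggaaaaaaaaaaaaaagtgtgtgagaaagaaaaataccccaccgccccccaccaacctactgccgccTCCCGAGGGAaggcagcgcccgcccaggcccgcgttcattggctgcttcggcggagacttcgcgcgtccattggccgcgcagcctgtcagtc

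The compartments were then compared within each genotype. Cells from the PC had more Spi1 and Ebf1 and less Ikzf1 than cells from the spleen in both genotypes, and Bach2 went in opposite directions. In NFKBIE-wt, 5 of the 10 genes were called between the PC and spleen, where 34.7% of 13801 genes were. Spi1 was higher in the PC by 1.18 ± 0.15, Ebf1 by 0.83 ± 0.20 and Spib by 0.71 ± 0.18 on the log2 scale, while Ikzf1 fell by 0.41 and Bach2 fell by 1.35 (edgeR adjusted p = 1.2e-05, 0.00363, 0.00409, 0.0023 and 0.00459). Without both libraries that went against their labels the same 5 and Bcl6 (1.51 ± 0.54, edgeR adjusted p = 0.0345) were called. The background of 34.7% is that of the fit with all libraries, and the share of all genes called without both is not given. In NFKBIE-ko, 4 were called (background 50.4%), Spi1 (1.38 ± 0.15), Ebf1 (0.83 ± 0.20) and Bach2 (0.89 ± 0.34) higher and Ikzf1 (-0.41 ± 0.09) lower in the PC, with edgeR adjusted p = 7.2e-07, 0.00198, 0.0365 and 0.00125. Bach2 stayed higher in the PC of NFKBIE-ko without any 1 library (0.70 to 1.51), but was called in 3 of these 8 fits. Macrophage and monocyte markers were higher in the PC in both genotypes, as given above.

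**Figure D5:**
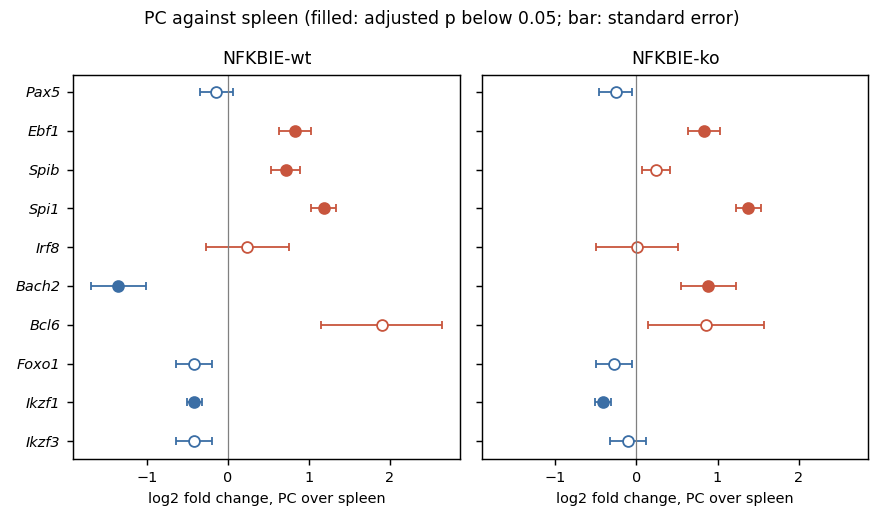
Log2 fold change of the PC over the spleen for each gene in NFKBIE-wt and NFKBIE-ko cells, with the standard error as a bar and filled points at an edgeR adjusted p below 0.05. Bach2 is filled on the left in NFKBIE-wt (-1.35) and on the right in NFKBIE-ko (0.89), and Spi1, Ebf1 and Ikzf1 are filled on the same side in both.

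Cultured cells had more Foxo1 and Ikzf3 than NFKBIE-ko spleen cells and than PC cells of both genotypes. In NFKBIE-ko, 4 of the 10 genes were called between the spleen and culture (background 29.9%), Irf8 higher in the spleen by 2.00 ± 0.59 and Foxo1 and Ikzf3 lower by -0.89 ± 0.24 and -0.98 ± 0.24 (edgeR adjusted p = 0.017, 0.00942 and 0.00588). The fourth was Bcl6, whose NFKBIE-ko cultures lay under the level of 3 counts per library, so that it was at least 18.5-fold higher in the spleen and at least 33.5-fold higher in the PC. Between the PC and culture 8 were called in NFKBIE-ko (background 47.3%), Spi1, Irf8, Ebf1 and Bcl6 higher and Pax5, Foxo1, Ikzf1 and Ikzf3 lower in the PC. In NFKBIE-wt 7 were called (background 33.4%), Spi1, Ebf1 and Bcl6 higher and Bach2, Foxo1, Ikzf1 and Ikzf3 lower, and without both libraries that went against their labels the call of Ikzf1 was lost (-0.26, edgeR adjusted p = 0.076). Between NFKBIE-wt spleen and culture 0 of the 10 genes were called by edgeR (background 0%, with 1 of the 10 and 1061 of 13801 genes at an unadjusted p below 0.05). This comparison holds both libraries that went against their labels. Without them 4 were called, Spib (-0.75 ± 0.20), Foxo1 (-0.82 ± 0.21) and Ikzf3 (-0.83 ± 0.18) lower and Bcl6 (2.19 ± 0.75) higher in the spleen, with edgeR adjusted p = 0.01, 0.0067, 0.00272 and 0.04. The background of 0% belongs to the fit with both libraries and is not that of these 4 calls. The share of all genes called without them is not given, so that the 4 calls are no result particular to the 10 genes.

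The order of the 6 groups differed from gene to gene. Bach2 was highest in NFKBIE-wt in vitro (26.9 ± 9.65 CPM, SD, n = 3) and NFKBIE-wt spleen (25 ± 3.34 CPM, n = 4), which did not differ beyond their spread. It was lower in NFKBIE-ko PC (11.8 ± 2.23 CPM), NFKBIE-ko in vitro (11.8 ± 1.06 CPM), NFKBIE-wt PC (9.76 ± 2.76 CPM) and NFKBIE-ko spleen (6.43 ± 4.61 CPM), neighbours within their spread. Spi1 stood apart in NFKBIE-ko PC (87.7 ± 10.1 CPM) and then in NFKBIE-wt PC (48.7 ± 12.1 CPM). NFKBIE-ko spleen (33.7 ± 3.25 CPM) and NFKBIE-ko in vitro (31.1 ± 1.90 CPM) followed within their spread of each other, as did NFKBIE-wt in vitro (24.5 ± 3.71 CPM) and NFKBIE-wt spleen (21.5 ± 3.18 CPM) at the low end.

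For each gene the transcripts of 9785 genes with at least 5 CPM on average were searched for the most similar pattern over the 22 samples (Pearson r of log2 CPM, a description in which samples share genotype, compartment and host cells). Spi1 ran with Tmem106a (0.973) and Lrrc25 (0.969), and Bcl6 with Lcp2 (0.972) and Csf1r (0.967), the receptor of the macrophage growth factor. Ebf1 ran with Nr1d2 (0.966) and Rnf167 (0.928), Ikzf3 with Heg1 (0.956) and Ttc39b (0.956), Ikzf1 with Arsb (0.951) and Jade1 (0.950), and Foxo1 with Zfp281 (0.939) and Ankrd28 (0.937). For Pax5 they were Foxj3 (0.929) and Setd2 (0.925), for Spib Plin3 (0.910) and Pip4k2a (0.894), for Bach2 Cmah (0.878) and Ptk2b (0.864), and for Irf8 Ctnna1 (0.875) and Frmd4b (0.868). Among the 10 genes, Ikzf3 and Foxo1 were the most similar pair (0.856) and Ikzf1 and Spi1 the most opposed (-0.937).

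Other transcription factors of B cells (a list of 36) were mixed. In the spleen 1 rose and 2 fell among 36 tested, in the PC 4 rose and 8 fell among 34, and in vitro 0 of 34 were called, where 5.17%, 42.9% and 0.0336% of all genes were. When the NFKBIE-wt spleen library with the label replicate 4 was left out, which was done for the 3 lists after seeing the data, 2 rose and 2 fell in the spleen, where 11.6% of all genes were called. Runx3, a Runt factor, rose in the spleen from 25.5 ± 6.98 to 56.7 ± 11.6 CPM and in the PC from 23.5 ± 2.36 to 41.3 ± 4.99 CPM (SD, n = 4, edgeR adjusted p = 0.0218 and 0.00016). Id2, which blocks the DNA binding of E proteins, fell in the PC by 1.06 on the log2 scale (adjusted p = 8.77e-05), as did the E protein gene Tcf3, by 0.51 (adjusted p = 0.000886), while Arid3a rose by 0.54 ± 0.10 (adjusted p = 0.00126). In the spleen Mef2c, a MADS-box factor, fell by 0.71 and Lef1, a Wnt pathway factor, by 0.66 (adjusted p = 0.0369 and 0.0398). The list's median log2 fold change was -0.25 for the spleen, 0.03 for the PC and -0.12 for cultures.

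Of 15 B-cell genes that Pax5 or Ebf1 activates, 14 were tested in each compartment. In the PC 7 rose and 2 fell, in the spleen 1 fell, and in vitro 0 were called (background 42.9%, 5.17% and 0.0336%). When that library was left out, 2 fell in the spleen (background 11.6%), Cd79b and Cr2. Cd79a, Cd79b, Cd22 and Ms4a1 are on this list and among the B-cell markers above. In the PC the surface receptor gene Cd22 rose from 10.7 ± 3.12 to 31.5 ± 5.65 CPM, Ms4a1 (CD20) from 665 ± 90.2 to 1155 ± 122 CPM and the kinase gene Blk from 59.4 ± 6.11 to 106 ± 5.59 CPM (edgeR adjusted p = 0.000198, 0.000198 and 2.52e-05). The complement receptor gene Cr2 fell from 10.7 ± 2.24 to 1.05 ± 0.08 CPM (adjusted p = 9.78e-07). The gene that fell in the spleen was Cd79b, which encodes a signalling chain of the B-cell receptor (495 ± 140 to 259 ± 37.8 CPM, adjusted p = 0.0426). The median was 0.03 for the spleen, 0.21 for the PC and -0.12 for cultures.

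Of 8 genes that Pax5 represses, all tested in the spleen, 4 fell and 1 rose in NFKBIE-ko, where 5.17% of all genes were called. When that library was left out the same 4 fell and 2 rose (background 11.6%). Sdc1 (CD138) fell from 7.75 ± 1.84 to 1.59 ± 0.42 CPM, the joining chain gene Jchain from 13.0 ± 6.14 to 2.09 ± 0.62 CPM, Prdm1 (Blimp-1), the factor that drives plasma cell differentiation, from 84.5 ± 46.8 to 20.7 ± 6.47 CPM, and Xbp1 from 287 ± 101 to 144 ± 16.3 CPM (edgeR adjusted p = 0.00485, 0.00713, 0.0221 and 0.0493). The first 3 and Xbp1 are plasma cell genes, of which Xbp1 was named after its values were seen. They are also on a list of 6 plasma cell markers. These markers summed to 617 to 913 CPM in NFKBIE-ko and 696 to 1313 CPM in NFKBIE-wt spleen. Without the library labelled replicate 4 the sum in NFKBIE-wt spleen was 696 to 1189 CPM. Notch1 rose from 22.5 ± 3.73 to 39.2 ± 8.54 CPM (adjusted p = 0.0392). In the PC, where 42.9% of all genes were called, Prdm1 and Xbp1 fell by 0.77 and 0.50 on the log2 scale (adjusted p = 0.00481 and 0.00615), and Cd28 and Csf1r rose, the latter from 49.6 ± 14.8 to 133 ± 22.4 CPM (adjusted p = 0.000196 and 0.00174). Csf1r is also a macrophage gene, and the macrophage and monocyte markers rose with it. In vitro 0 of 7 tested were called (background 0.0336%, and 0 of 7 without the library labelled replicate 3), and all 7 had a negative log2 fold change, with a median of -1.24 (for all genes tested, -0.02).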

How the data were processed

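RNA from 22 samples was sequenced on an Illumina NovaSeq. The authors estimated counts per transcript with Salmon 1.8 and named DESeq2 and GRCm39 in the submitters' processing notes. The deposited table holds these estimated counts, not normalized, for 62492 transcripts, each above 0 in at least 5 samples. GENCODE vM39 assigned 62147 of them to 17023 genes, and the rest held 0.619% of counts. Counts were summed per gene and rounded to whole numbers.

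Groups were taken from the labels. The cultures were separate, and spleen and PC cells came from 5 mice per genotype, with no statement of which mouse gave which sample. Samples of the spleen and PC can thus share a mouse, and the tests treat them as independent. Cells of each genotype had been propagated apart from the other before transfer, so that p-values measure the spread between these samples. In the spleen and PC an effect of genotype cannot be told apart from one of this separate passage. Counts were scaled by TMM, genes were filtered with filterByExpr, and edgeR 4.0.16 (R 4.3.3) quasi-likelihood tests were fitted on all genes, with the 2 genotypes of a compartment for genotype effects and with all 22 samples for compartments and interactions. Transcripts were tested alone in the same way. Calls required a Benjamini-Hochberg adjusted p below 0.05, with or without a log2 fold change beyond 1. Fits were tested on simulated data. Alternatives were DESeq2 1.42.0, other size factors and filters, the transcript with most counts per gene, a replicate block, all samples in 1 fit and leaving out libraries. Figures were drawn with matplotlib 3.10.9 (Python 3.11.15).

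Named were the 10 genes, Nfkbie, up to 4 genes per list with the smallest unadjusted p in a genotype comparison, the 2 genes most like each of the 10, and each gene's main transcripts. The members and lists were chosen with earlier results of these data known.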

Additional observations from a re-analysis of the deposited data

Results flagged for a closer look

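Among 40 groups of 4 samples examined for the 10 genes, 4 held 1 sample far from the other 3 for the spread of the group, and chance gives about 1 such group in 20. Pax5 was at 269 CPM in NFKBIE-ko PC replicate 1, against 174 to 188 CPM in the other replicates. Spib was at 614 CPM in NFKBIE-ko spleen replicate 1, against 562 to 571 CPM, and at 572 CPM in NFKBIE-wt PC replicate 4, against 641 to 652 CPM. Irf8 was at 125 CPM in NFKBIE-ko spleen replicate 3, against 94.8 to 98.3 CPM.

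The genotype effect on Bach2 differed between compartments, being lower in the spleen than in the PC by a log2 difference of -2.24 (edgeR interaction test, adjusted p = 0.0126).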

How the results depend on the processing

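In the spleen, where 3 of the 10 genes were called between genotypes, 5 were called with DESeq2, 1 with the dominant transcript, 6 with all 22 samples in the fit and 0 with the replicate block, and 0 to 4 with 1 library left out. Of all genes 642 were called there, against 1657, 348, 2104 and 83 under these settings and 129 to 1474 with 1 library left out. In vitro 0 were called, but 2 with DESeq2 (232 of all genes, against 4) and 0 to 4 with 1 library left out (up to 776 of all genes). Between the PC and spleen the dominant transcript gave 3 calls in NFKBIE-wt and 2 in NFKBIE-ko. Between NFKBIE-wt spleen and culture 4 were called with both libraries left out. Between NFKBIE-wt PC and culture 4 were called with only the 2 groups compared, and 3 to 7 with 1 library left out (3 without NFKBIE-wt in vitro replicate 1). The interaction of spleen and in vitro called 1 gene with DESeq2 and 0 to 2 with 1 library left out, and that of the PC and in vitro 2 and 0 to 4. For these compartment and interaction settings the share of all genes called is not given, so that their counts are no result particular to the 10 genes. The cause of the changes in count was not tested.

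With 1 library left out in turn, the log2 fold change of Pax5 ran from -0.075 to 0.23 in the spleen (negative without NFKBIE-wt or NFKBIE-ko replicate 2) and from -0.20 to 0.047 in the PC (positive without NFKBIE-wt replicate 2 or 3 or NFKBIE-ko replicate 2, 3 or 4), and that of Ikzf3 in vitro from -0.077 to 0.43 (negative without the library labelled NFKBIE-wt replicate 3). Ikzf1-204 alone, an alternative chosen after seeing the data, gave 0.023 in the spleen and 0.14 in the PC. In the PC the count of 5 was 4 with the dominant transcript and with all 22 samples. The interaction on Bach2 between the spleen and PC was called in all 22 alternatives run, from -2.86 to -2.05.

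For same-numbered samples of the genotypes, the r of their deviations from group means was -0.310 to 0.050 (spleen), -0.193 to 0.042 (PC) and -0.008 to 0.147 (in vitro). Between PC and spleen it was -0.159 to 0.196 for NFKBIE-wt and -0.036 to 0.180 for NFKBIE-ko, where 3 of 4 were above 0.1. No comparison had all pairs above 0.1, and no source ties a number to a mouse, so that the numbers were not used as pairs. With the replicate block the PC against the spleen gave 4 calls in NFKBIE-wt and 6 in NFKBIE-ko, with no share of all genes given for these fits. A call lost under the block is no measure of a weaker effect. Counting depth limited Bcl6 in vitro, at 0 to 30 counts per library.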
